A study of Mus musculus with 9 samples.

Results

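The carbonic anhydrase genes examined here were Car1, Car2, Car3, Car4, Car5a, Car8, Car13 and Car14, 8 of the 16 genes of the family in the count tables and 8 of 23420 genes in all. They were taken by gene symbol from the liver count tables. The family was chosen by differences between the diets in the read counts of these same libraries, which earlier results had shown, so the diet differences of its members are given as a description and are not independent evidence of a diet effect. The libraries came from livers of male wild-type C57BL/6 mice, 3 mice on each of 3 diets. All groups received a soy-free AIN-93G diet from 5 weeks of age for 50 days and were killed at 12 weeks. The diets differed in iron, with 2.5 mg/kg in the low-iron group, 37.5 mg/kg in the sufficient-iron group and 1000 mg/kg in the high-iron group. Libraries carry the numbers given in their titles, which are 1, 5 and 9 for low iron, 2, 6 and 10 for sufficient iron and 4, 8 and 12 for high iron. Each library is bulk RNA of a whole tissue, so fewer cells of a type and less RNA per cell cannot be told apart. P-values set a difference between diets against the spread between mice on the same diet.

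Carbonic anhydrases are zinc enzymes that interconvert carbon dioxide and water with bicarbonate and a proton, and the isoforms differ in catalytic speed and in where they sit. Car1, Car2, Car3 and Car13 are cytosolic, Car4 and Car14 face the outside of the cell at the plasma membrane, Car5a and Car5b lie in mitochondria, and Car8 lacks the active-site residues that catalysis needs. In liver the mitochondrial enzymes provide bicarbonate for urea synthesis and for carboxylation of pyruvate, and Car3, a slow isoform rich in reactive cysteines, is an abundant protein of hepatocytes, adipocytes and slow muscle fibres.

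Between 22 M and 33.8 M reads per library fell in genes. Reads of the ribosomal RNA gene Rn45s took 43.7% of gene reads in low-iron library 1 and 40.5% in high-iron library 12, against 12.5% to 23.8% in the other 7. Levels are therefore given as counts per M reads (CPM) on library sizes scaled by TMM, edgeR's trimmed mean of M-values. Of the 8 genes, 7 passed the filter on low counts and Car4 did not, and 13020 genes were tested in all. The erythroid precursor gene Alas2 was the main erythroid marker seen, at 102 ± 20.9 CPM in low iron, 71.0 ± 9.75 CPM in sufficient iron and 34.1 ± 5.33 CPM in high iron (SD, n = 3 each).

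The RefSeq promoter table (GRCm38.p6), which gives 250 bases before and 50 after the start of a gene, held 3 of the 8 genes, namely Car14, Car5a and Car4. The promoters of Car14 and Car5a are shown because the levels of one differed widely between diets and those of the other hardly differed between the sufficient and high diets. Both genes lie on the minus strand, Car14 at chr3:95904636-95904935 and Car5a at chr8:121944863-121945162, and capitals mark matches to the motifs described after them.
Car14: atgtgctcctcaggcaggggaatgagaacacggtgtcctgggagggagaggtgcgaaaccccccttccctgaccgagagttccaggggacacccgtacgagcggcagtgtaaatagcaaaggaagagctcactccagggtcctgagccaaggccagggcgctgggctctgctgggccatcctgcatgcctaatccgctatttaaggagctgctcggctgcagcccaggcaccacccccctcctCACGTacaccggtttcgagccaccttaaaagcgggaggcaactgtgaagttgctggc
Car5a: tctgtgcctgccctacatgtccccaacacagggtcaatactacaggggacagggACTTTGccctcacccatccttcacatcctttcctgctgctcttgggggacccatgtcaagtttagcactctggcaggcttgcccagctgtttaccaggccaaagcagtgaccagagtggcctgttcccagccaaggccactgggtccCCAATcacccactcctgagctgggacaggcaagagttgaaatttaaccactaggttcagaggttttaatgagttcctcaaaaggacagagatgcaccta
The Car14 promoter held 13 CpG dinucleotides and 61.0% G or C, while the Car5a promoter held 0 CpG dinucleotides and 53.7% G or C. The median of the 32851 promoters in the table was 7 CpG dinucleotides, with 37.9% holding 13 or more and 5.43% holding none. On both strands, 6 motifs were searched: the TATA box with the letters TATAAA, the CAAT box with the letters CCAAT, the GC box with the letters GGGCGG, the core of the HNF1 motif with the letters GTTAAT, that of the HNF4 motif with the letters CAAAGT and that of the hypoxia response element with the letters ACGTG. Car14 had 1 match, ACGTG starting 7 bases before the start site on the opposite strand, and 19.6% of all promoters held this motif. Car5a had 2 matches, CCAAT starting 49 bases before the start site (37.4% of all promoters) and CAAAGT starting 196 bases before it on the opposite strand (14.4% of all promoters). The motifs do not overlap each other in these promoters, and a match in letters is a description, not a binding site.

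Car3 dominated the family. It took 93.3% of all family reads, from 90.5% in high-iron library 12 to 95.7% in low-iron library 1, and ranked 34 of 23420 genes in mean CPM. To compare genes, levels were divided by exon length (CPM per kb, mean of 9 libraries, exon models of GENCODE M21). On this scale Car3 stood at 670, Car8 at 20.3, Car5a at 19.2, Car14 at 6.04, Car2 at 2.61, Car1 at 2.48 and Car13 at 0.157 CPM per kb. Car3 lay 33.0 times above Car8. The ranges of Car8 and Car5a overlapped, with libraries at 15.4 to 26.8 and at 14.4 to 27.2 CPM per kb. Whether the 2 genes differ within libraries was not tested. The places of Car1, Car2 and Car14 moved with the diet. In low iron Car1, at 3.02 to 4.04 CPM per kb, lay above Car2, at 1.87 to 2.17, and in high iron Car1, at 1.84 to 2.65, lay below Car2, at 3.31 to 4.14, while in sufficient iron their libraries overlapped. For Car14 in low iron, 6.78 to 12.8 CPM per kb lay above Car2, and in high iron its 1.65 to 3.09 lay below Car2. These orders were read off the values and were not tested.

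**Figure D1:**
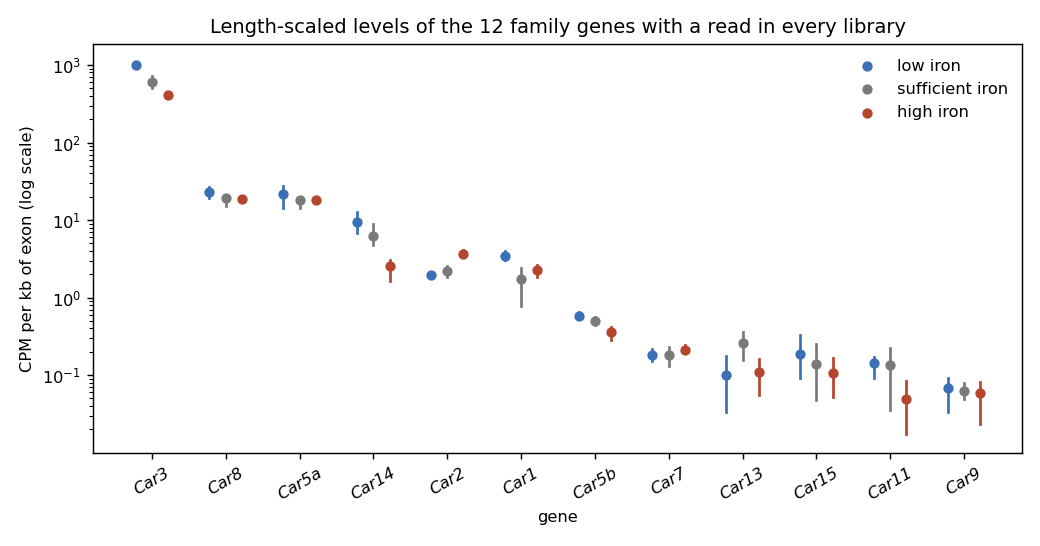
Mean level per kb of exon (CPM per kb, log scale) of the 12 family genes with a read in every library, by diet; points are means of 3 libraries and lines run from the lowest to the highest library. Car3 lies far above the other genes, and Car14 and Car1 lie above Car2 in low iron and below it in high iron.

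The cytosolic isoform Car3 was highest in low iron and lowest in high iron. It measured 2779, 2605 and 3078 CPM in low iron, 2071, 1457 and 1714 CPM in sufficient iron and 1294, 1126 and 1140 CPM in high iron. Every low-iron library lay above every sufficient-iron library, and every sufficient-iron library above every high-iron library, an order found in 40 of the tested genes (0.307%). In the fit, the log2 fold change of Car3 was -1.25 ± 0.15 (SE) from low to high iron (adjusted p = 0.0125, edgeR's quasi-likelihood test with Benjamini-Hochberg adjustment over all tested genes). Between sufficient and high iron it was -0.56 ± 0.15 (adjusted p = 0.235) and between sufficient and low iron 0.69 ± 0.15 (adjusted p = 0.446), neither past the threshold of 0.05 in edgeR. With DESeq2, Car3 passed the threshold in all 3 comparisons. Between sufficient and low iron that adjustment ran over 1156 genes only, against 12764 between sufficient and high iron and 13017 between low and high iron. On unscaled library sizes, the low-iron and sufficient-iron libraries overlapped, with 0.162% of gene reads in Car3 in low-iron library 1 against 0.187% to 0.218% in the sufficient-iron libraries, and the separation returned once Rn45s and Lars2 were taken out of the totals. No 50-base stretch of its exons is shared with another annotated gene.

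Car2, the fast and widespread cytosolic isoform, was highest in high iron, where Car3 was lowest. It measured 4.52, 4.61 and 5.25 CPM in low iron, 4.48, 6.26 and 5.46 CPM in sufficient iron and 10.03, 8.02 and 8.23 CPM in high iron. The low-iron and sufficient-iron libraries overlapped, and all 3 high-iron libraries lay above the other 6. On unscaled library sizes the high-iron and sufficient-iron libraries overlapped (6.41 CPM in high-iron library 12 against 8.05 CPM in sufficient-iron library 6). Its log2 fold change was 0.87 ± 0.17 from low to high iron (adjusted p = 0.0544) and 0.69 ± 0.16 from sufficient to high iron (adjusted p = 0.169), which missed the threshold in edgeR's test. DESeq2 put the low to high difference past the threshold (adjusted p = 0.0011), as it did the sufficient to high difference.

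Car1, the other main isoform of red cells, was low in liver, at 42 to 138 reads per library. Its levels were 3.90, 5.05 and 3.77 CPM in low iron, 2.62, 0.967 and 3.01 CPM in sufficient iron and 2.98, 3.30 and 2.30 CPM in high iron. The 3 low-iron libraries were the highest, and sufficient-iron library 6 was the lowest of all 9. On unscaled library sizes the low-iron libraries overlapped both other diets, with low-iron library 1 at 2.27 CPM. The log2 fold change from sufficient to low iron was 0.97 ± 0.35 (adjusted p = 0.446), and from low to high iron it was -0.56 ± 0.35 (adjusted p = 0.675). In the GENCODE models, 13.4% of its 50-base stretches also occur in the pseudogene Gm5843, so part of its count is uncertain.

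Car13, a cytosolic isoform of many tissues, was near the detection limit, with 1 to 36 reads per library. It stood at 0.078, 0.402 and 0.211 CPM in low iron, 0.364, 0.829 and 0.607 CPM in sufficient iron and 0.368, 0.126 and 0.267 CPM in high iron. The highest values were in sufficient iron, but the groups overlapped in all comparisons. The log2 fold changes were -1.25 ± 0.53 for low iron (adjusted p = 0.446) and -1.28 ± 0.52 for high iron (adjusted p = 0.516), both against sufficient iron.

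**Figure D2:**
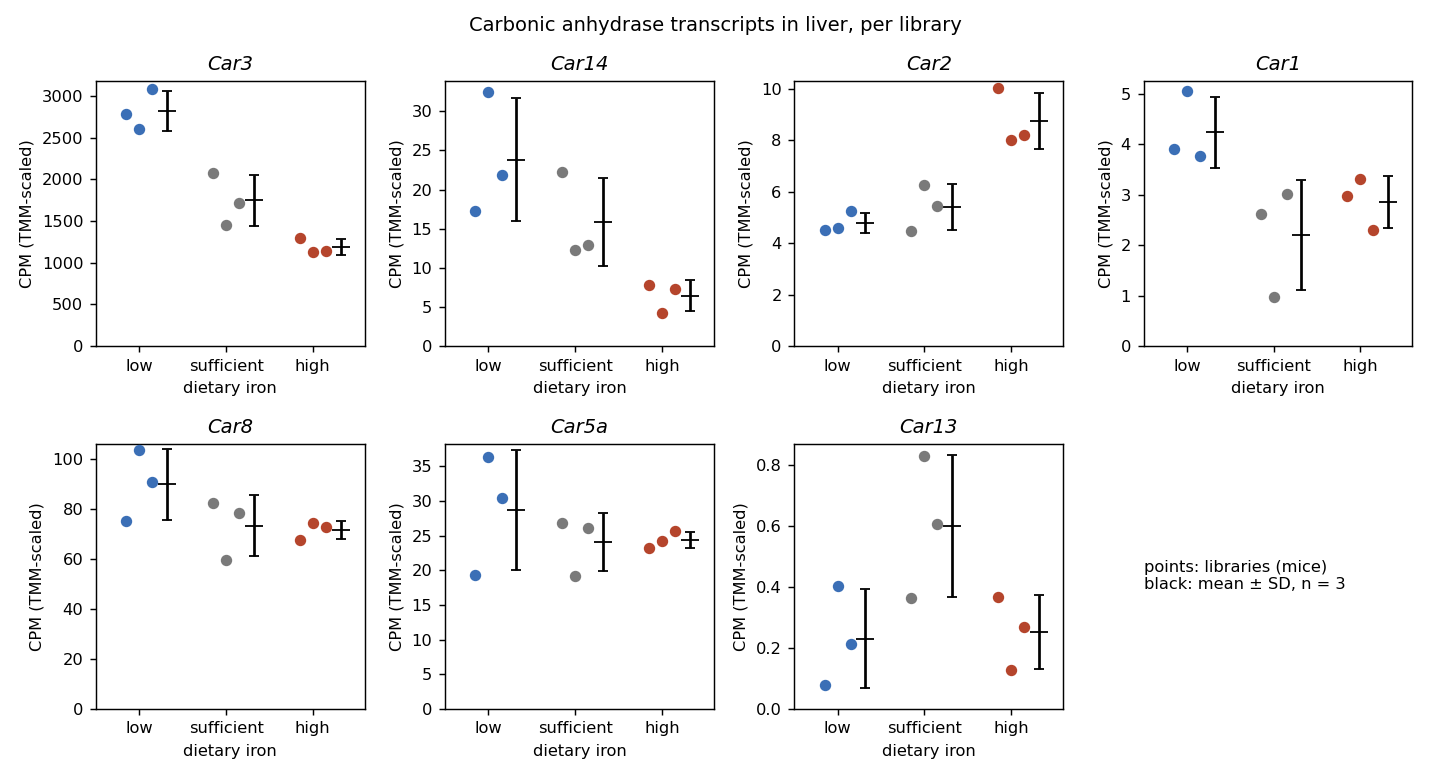
Level of the 7 tested genes (CPM on TMM-scaled library sizes) by diet; points are libraries of 1 mouse each, and black bars are the mean ± SD of 3. Car3 separates all 3 diets, Car14 is lowest and Car2 highest in the 3 high-iron libraries, and Car5a overlaps between all diets.

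The membrane isoform Car14, whose promoter is shown above, was low in high iron. It measured 17.2, 32.4 and 21.8 CPM in low iron, 22.3, 12.3 and 12.9 CPM in sufficient iron and 7.86, 4.18 and 7.32 CPM in high iron. All high-iron libraries lay below the other 6, while low and sufficient iron overlapped. Car14 fell from low to high iron with a log2 fold change of -1.90 ± 0.32 (adjusted p = 0.0339, edgeR). Its difference was -1.30 ± 0.32 from sufficient to high iron (adjusted p = 0.185) and 0.60 from sufficient to low iron (adjusted p = 0.464). Of the 2543 exon bases of Car14, 445 overlap Aph1a, a gamma-secretase subunit gene on the opposite strand, and the strand setting of the counts is not given in the sources used here, so reads of that stretch cannot be assigned. Aph1a itself lay at 51.2 to 76.4 CPM, with log2 fold changes of 0.20 ± 0.14, -0.21 ± 0.14 and -0.00 ± 0.14 in low iron against sufficient iron, high against low and high against sufficient (adjusted p = 0.543, 0.698 and 0.995). The GPI-anchored isoform Car4 had 1 read in all 9 libraries, in low-iron library 5. A count of 0 allows up to 3 reads, which is 0.0690 to 0.234 CPM depending on the library.

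The mitochondrial isoform Car5a had similar means in sufficient and high iron, 24.1 ± 4.19 and 24.4 ± 1.19 CPM (SD, n = 3 each). Its values were 19.3, 36.4 and 30.4 CPM in low iron, 26.8, 19.2 and 26.1 CPM in sufficient iron and 23.3, 24.2 and 25.6 CPM in high iron. Low-iron library 1 was far below the other 2 of its group, and all groups overlapped. The log2 fold change was 0.02 ± 0.21 from sufficient to high iron and -0.25 ± 0.21 from low to high iron (adjusted p = 0.984 and 0.767). Part of its exons, 20.9% of the 50-base stretches, also occurs in other genes (354 in all), and 314 bases overlap the noncoding gene BC048644. Its paralog Car5b, also mitochondrial, was lower in high iron, with 4.13, 3.33 and 3.63 CPM in low iron, 3.61, 3.20 and 2.79 CPM in sufficient iron and 2.68, 1.82 and 2.40 CPM in high iron. The low to high difference of Car5b was -0.68 ± 0.20 on the log2 scale and missed the threshold (adjusted p = 0.227).

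The acatalytic Car8, known as a partner of the inositol trisphosphate receptor, came after Car3 in level per kb, beside Car5a. Its levels were 75.2, 103 and 90.5 CPM in low iron, 82.2, 59.3 and 78.1 CPM in sufficient iron and 67.5, 74.4 and 72.5 CPM in high iron. Each low-iron library lay just above each high-iron library, by as little as 75.2 against 74.4 CPM. The log2 fold change from low to high iron was -0.33 ± 0.15 (adjusted p = 0.528). This separation was lost on unscaled library sizes and once Rn45s and Lars2 were taken out, with TMM or on plain totals, and was kept with TMM or DESeq2 size factors on all genes.

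**Figure D3:**
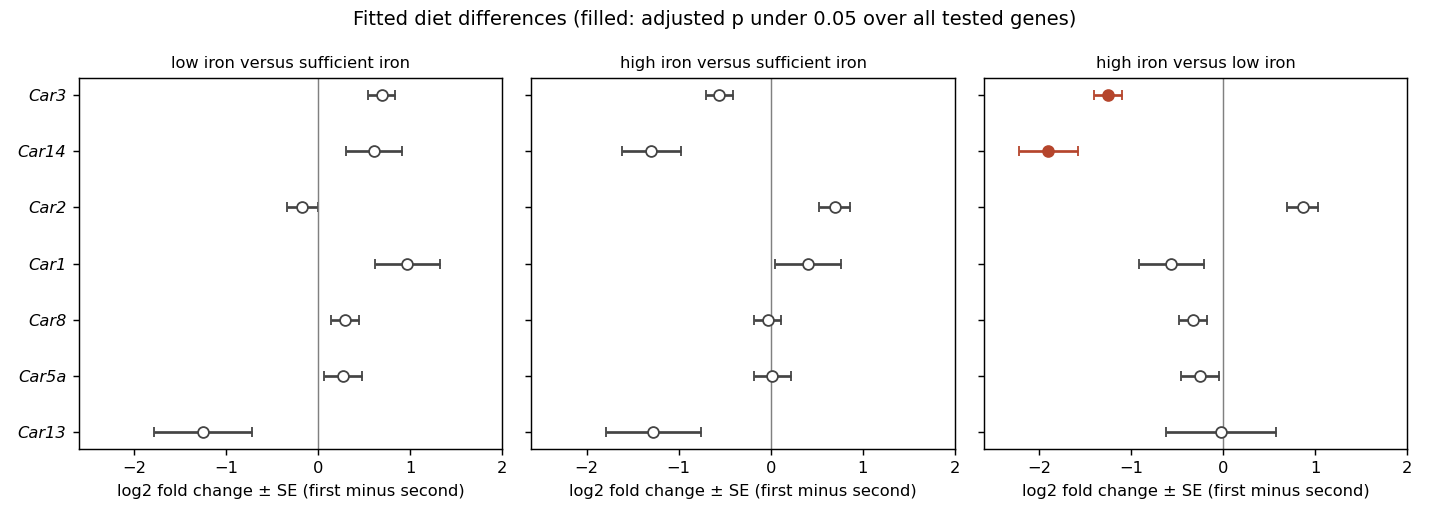
Fitted log2 fold change ± SE of the 7 tested genes in each of the 3 comparisons, first group minus second; filled points passed an adjusted p of 0.05 over 13020 genes. Car3 and Car14 are filled in the comparison of high with low iron, where Car2 lies on the other side of 0.

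Counted over the 7 tested members, 2 (Car3 and Car14) passed an adjusted p of 0.05 between low and high iron, where 0.507% of all tested genes did, and 1 (Car3) passed the test of any diet difference, beside 0.215%. Between sufficient and high iron edgeR called 0 members and 0.215% of all genes, and between sufficient and low iron 0 members and 0% of all genes. At an unadjusted p under 0.05 the counts were 4 between sufficient and high iron (9.28% of all genes), 3 between sufficient and low iron (11.2%) and 3 between low and high iron (9.65%). DESeq2 called 3 members (Car2, Car3 and Car14) between sufficient and high iron, beside 1.71% of all genes given an adjusted p, the same 3 between low and high iron, beside 2.8%, and 3 for any diet difference, beside 3.17%. Between sufficient and low iron DESeq2 called 1 (Car3), beside 9.08%, but gave an adjusted p to 1156 genes only, Car3 alone among the members, so the other members were not judged by DESeq2 there. Groups did not overlap for 3 members between sufficient and high iron (17.8% of all genes), 2 between sufficient and low iron (16.6%) and 5 between low and high iron (15.7%). The median log2 fold change of the 7 was -0.03, 0.29 and -0.33 in high against sufficient, low against sufficient and high against low iron, beside -0.01, -0.00 and -0.01 over all tested genes. The members were picked with these comparisons known, so nothing is read from these counts.

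The calls of Car3 and Car14 between low and high iron depended on single libraries. Car3 stayed past the threshold in 16 of 20 alternative settings, with log2 fold changes of -1.32 to -1.18, and missed it without low-iron library 9, high-iron library 4, high-iron library 8 or high-iron library 12 (adjusted p = 0.0674, 0.0596, 0.0855 and 0.0541). Car14 stayed past it in 13 of 20, with log2 fold changes of -2.18 to -1.61, and missed it without any of these 4 libraries, without low-iron library 5, without libraries 1 and 12 together and with no filter on low counts. Car2 passed 0.05 in 3 of 20, which were DESeq2, the setting without sufficient-iron library 6 and the setting without low-iron 1 and sufficient-iron 6, and its adjusted p of 0.0544 also passed the looser threshold of 0.1, with log2 fold changes of 0.75 to 0.94. All signs of these 3 genes held in every setting.

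**Figure D4:**
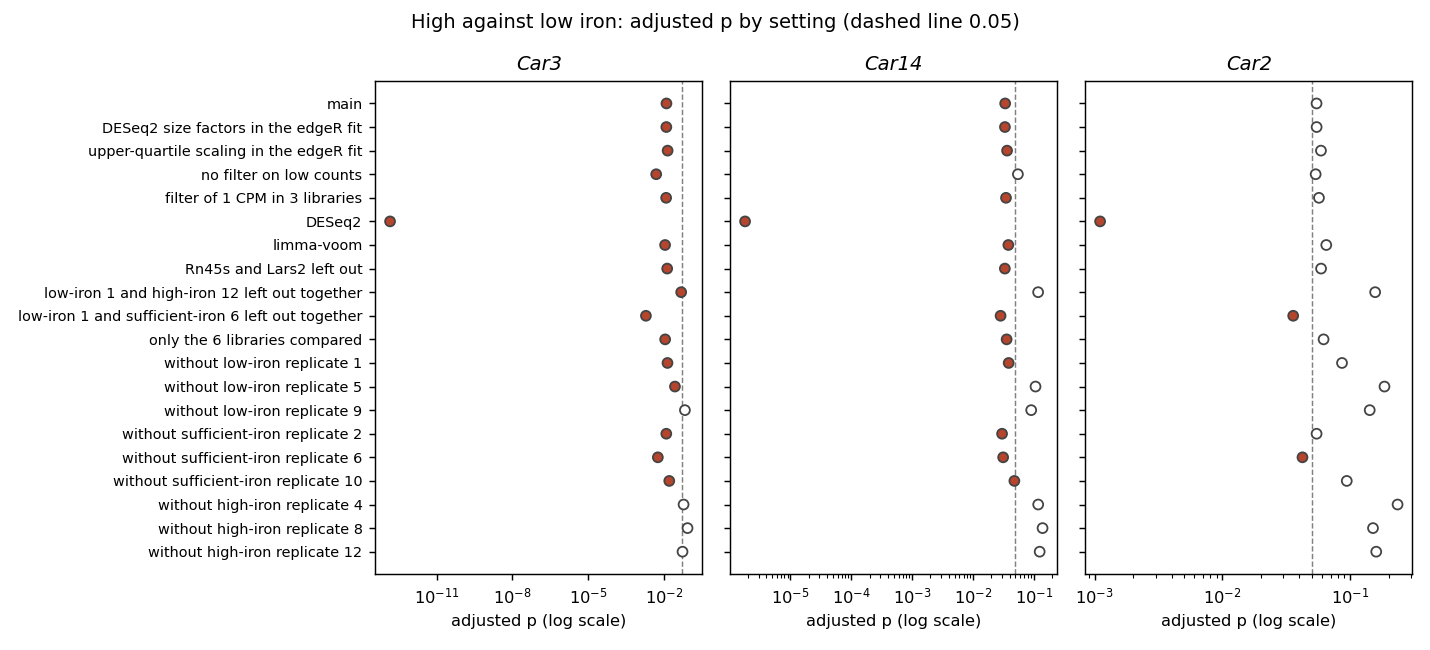
Adjusted p (log scale) of Car3, Car14 and Car2 in high against low iron under the main setting and 19 of the 20 alternatives, the looser threshold being left out; the dashed line is 0.05 and filled points lie below it. The points of Car3 and Car14 cross the line when single low-iron or high-iron libraries are left out.

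Across the 9 libraries Car3 and Car14 varied together (Pearson's r = 0.886 on the log2 CPM scale), and Car2 ran against both (-0.846 with Car3 and -0.855 with Car14). Within diets, as deviations from the diet means, these values were 0.473, -0.300 and -0.197. Car5a and Car8 varied together over all libraries (0.885) and within diets (0.932), as did Car1 and Car8 (0.806 and 0.769). The values of all genes in a library share its depth and Rn45s share, which differed between libraries as given above, and 9 points describe these libraries only. In the RefSeq order of protein-coding genes on chromosome 3 (GRCm38), Car13, Car1, Car3 and Car2 follow each other without another gene between them. The direct neighbours Car3 and Car2 had log2 fold changes of opposite sign from low to high iron.

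Genes with the most similar profile were taken by Pearson's r over the 9 libraries among 10934 genes. These are the highest values of a large search over few libraries, and they were not compared with what such a search gives without any relation. The profile of Car13 rests on 1 to 36 reads per library and is uncertain. For Car3 they were Igfals (0.990), Gpc4 (0.971) and Uchl5 (0.967). For Car14 they were Ash2l (0.970), Enpep (0.967) and Cmah (0.965), and for Car2 they were Tgfa (0.968), Casc4 (0.966) and Chmp6 (0.9501). Car1 was nearest to Ahcy (0.989), Cyp2d9 (0.981) and Slc15a5 (0.970), and Car13 to Ptk2 (0.967), Dopey1 (0.954) and Dag1 (0.951). Car5a was nearest to Nars2, Pm20d1 and Col13a1 (0.965 each), and Car8 to Cyp2c44 (0.957), Aldh4a1 (0.956) and F7 (0.944). Igfals, which encodes the acid-labile subunit of the circulating IGF complex, had a difference of -1.16 on the log2 scale between low and high iron (adjusted p = 0.0142), and was called in 5 of the 9 fits with 1 library left out (not without low-iron 9, high-iron 4, high-iron 8 or high-iron 12).

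The other family genes were scarce. Car7 lay at 0.483 to 0.881 CPM, and its log2 fold change was 0.25 ± 0.32 between low and high iron (adjusted p = 0.850). Car9, Car11 and Car15 stayed under 1 CPM in every library, and Car6, Car10 and Car12 had 2, 6 and 1 reads in all.

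Genes that use or move bicarbonate did not pass edgeR's test in any comparison. Of 8 bicarbonate-using carboxylases and Cps1, the entry enzyme of the urea cycle, all 8 were tested and 0 were called by edgeR or limma-voom. At an unadjusted p under 0.05 edgeR had 0 between sufficient and high iron, 3 between sufficient and low iron and 3 between low and high iron. The shares of all tested genes there were 9.28%, 11.2% and 9.65%. DESeq2 called 1 gene of the list, Pcca, between low and high iron, beside 2.8% of all genes given an adjusted p. Cps1 had a log2 fold change of -0.65 from low to high iron (adjusted p = 0.421), and Pcca, a subunit of propionyl-CoA carboxylase, one of -0.44 (adjusted p = 0.191). Mccc1 and Mccc2, the subunits of methylcrotonyl-CoA carboxylase, stood at -0.30 and -0.17 in the same comparison (adjusted p = 0.293 and 0.634). The list's median was -0.21 between low and high iron, with 6 of 8 below 0. Of 14 bicarbonate transporters, 8 were tested and 0 were called by edgeR or limma-voom. DESeq2 called Slc26a1 from sufficient to high iron (beside 1.71% of all genes given an adjusted p) and from low to high iron (beside 2.8%). In edgeR it was the 1 gene of the list at an unadjusted p under 0.05 in each, beside 9.28% and 9.65% of all tested genes. Slc26a1, a sulfate and bicarbonate exchanger, had the lowest p, with -0.57 from sufficient to high iron (adjusted p = 0.139). The anion exchangers Slc26a4 and Slc4a2 and the sodium bicarbonate cotransporter Slc4a4 had adjusted p-values of 0.764, 0.655 and 0.655 there, with log2 fold changes of 0.41, -0.15 and -0.27.

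Markers of red cell precursors, muscle and fat, where Car1, Car2 or Car3 are abundant, were examined beside them. The summed erythroid markers lay at 89.2 to 128 CPM in low iron, 63.5 to 82.9 CPM in sufficient iron and 29.97 to 39.4 CPM in high iron, the diets in the same order as for Car3, and nearly all of the sum was Alas2. Of 16 markers, 12 were in the files, 2 (Alas2 and Klf1) were tested, and Hbb-b1, Hbb-b2, Hba-a1, Hba-a2 and Gata1 were at 0 in all libraries. The counter is not given, so whether reads of these genes could be counted is not known. Their 0 is not read as absence of the transcripts. Alas2 fell by 1.58 on the log2 scale from low to high iron (adjusted p = 0.0113) and by 1.06 from sufficient to high iron (adjusted p = 0.0479). With 1 library left out in turn, edgeR called the first in 7 of 9 fits (not without high-iron 4 or high-iron 8) and the second in 2 of 9 (without low-iron 1 or low-iron 5). Klf1, an erythroid transcription factor, did not follow that order, at 1.77 ± 0.0917 CPM in low iron, 1.15 ± 0.398 CPM in sufficient iron and 1.38 ± 0.473 CPM in high iron (SD, n = 3 each), and was not called (adjusted p = 0.790 between low and high iron). Their part in the levels of Car1, Car2 and Car3 was not tested. The 8 skeletal muscle markers summed to at most 0.658 CPM in any library, with Ckm, Myh2 and Myh4 at 0. For the same reason as above, the 0 of these genes, and of the adipocyte markers Plin1 and Lep, is not read as absence. Only 1 of the 8 (Mylpf) passed the filter and was tested, and edgeR and DESeq2 called it in no comparison. Between sufficient and low iron DESeq2 gave an adjusted p to 1156 genes only, so a gene without a call there may not have been judged. Among the 6 adipocyte markers, Plin1 and Lep were at 0, and the sum was 5.56 to 19.9 CPM in low iron, 5.50 to 57.6 CPM in sufficient iron and 9.94 to 29.1 CPM in high iron, beside at least 1126 CPM of Car3. Most of that sum was Cidec, at 4.96 to 56.6 CPM over all libraries. Cfd lay at 0.510 to 5.88 CPM, Retn at up to 0.234 CPM and Adipoq at up to 0.0705 CPM. Only 2 of the 6 adipocyte markers (Cfd and Cidec) were tested, and neither edgeR nor DESeq2 called them, with the same limit for DESeq2 between sufficient and low iron. In edgeR 1 (Cfd) had an unadjusted p under 0.05, between sufficient and high iron, beside 9.28% of all tested genes.

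Hepatocyte genes were examined in the same way. The 6 hepatocyte markers summed to 72142 to 81739 CPM in low iron, 58289 to 80957 CPM in sufficient iron and 52373 to 63123 CPM in high iron, with 0 of 6 called by edgeR and all 6 below 0 from low to high iron. At an unadjusted p under 0.05 edgeR had 4 of the 6 there, beside 9.65% of all tested genes. DESeq2 called 1 of the 6 there (Trf), beside 2.8% of all genes given an adjusted p. Most of the summed hepatocyte level was Alb, at 35159 to 55105 CPM over all libraries. Of 10 pericentral hepatocyte markers, 2 fell between low and high iron in edgeR, which called 0.507% of all tested genes there. These were Rhbg, an ammonium transporter (-1.51, adjusted p = 0.0191), and Oat, ornithine aminotransferase (-1.14, adjusted p = 0.0328), and 9 of 10 were below 0. DESeq2 called 5 of the 10 there (Cyp1a2, Lect2, Lgr5, Oat and Rhbg), beside 2.8% of all genes given an adjusted p. Between sufficient and low iron it called 3, beside 9.08%, but gave an adjusted p to 1156 genes only. Between sufficient and high iron it called 2, beside 1.71%. In the same order edgeR had 6, 5 and 4 at an unadjusted p under 0.05, beside 9.65%, 11.2% and 9.28% of all tested genes. With 1 library left out in turn, Rhbg was called by edgeR in 5 of 9 fits and Oat in 4 of 9, and neither was called without low-iron 5, low-iron 9, high-iron 4 or high-iron 8, nor Oat without high-iron 12. Summed pericentral markers lay at 5790 to 7826 CPM in low iron, 3632 to 5662 CPM in sufficient iron and 5075 to 5976 CPM in high iron. Most of that sum was Cyp2e1, with means of 4331, 2870 and 4040 CPM in low, sufficient and high iron, so the sum does not show the order of the other markers. The 7 male-biased liver genes were all tested in edgeR, and 0 were called by edgeR or DESeq2. Between sufficient and low iron, where DESeq2 gave an adjusted p to 1156 genes only, they may not have been judged by it. From low to high iron all 7 were below 0 (median -0.46), with 1 at an unadjusted p under 0.05, beside 9.65% of all tested genes. From sufficient to low iron all 7 were above 0 (median 0.56), with 2 at an unadjusted p under 0.05, beside 11.2%. Their sums were 1690 to 2102 CPM in low iron, 745 to 1682 CPM in sufficient iron and 1178 to 1613 CPM in high iron. The lowest sum, 745 CPM, was that of sufficient-iron library 6. The periportal (7 tested), cholangiocyte (6), sinusoidal endothelial (8) and Kupffer cell (7) markers had 0 calls by edgeR in all comparisons, with medians from low to high iron of -0.18, 0.85, 0.28 and 0.21. From low to high iron 2, 3, 1 and 1 of them had an unadjusted p under 0.05 in edgeR, beside 9.65% of all tested genes. DESeq2 called 1 of the periportal markers (Cyp2f2) there and 0 of the other 3 lists, beside 2.8% of all genes given an adjusted p. Between sufficient and low iron, all 7 Kupffer cell markers were below 0 in low iron (median -0.79). So were all 8 sinusoidal endothelial markers (median -0.31) and 5 of the 6 cholangiocyte markers (median -0.67). In this order, 5, 1 and 4 had an unadjusted p under 0.05 in edgeR, beside 11.2% of all tested genes. Summed Kupffer cell markers lay at 85.9, 190 and 203 CPM in low-iron libraries 1, 5 and 9, and at 199 to 333 CPM in sufficient iron. The lowest sum was thus that of low-iron library 1, with its high Rn45s share. After adjustment edgeR called 0 of all tested genes in that comparison. The part of these markers in the carbonic anhydrase levels was not tested.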

How the data were processed

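Counts of reads per gene symbol, deposited by the authors as 1 table per library, were used as they stand, leaving out the 5 closing category entries. Per the labels, RNA was isolated on RNeasy Mini columns and sequenced from TruSeq RNA libraries on a HiSeq instrument. Builds mm9 and mm10, neither with a stated role, and FastQC appear in the submitters' processing notes. Aligner, counter and strand setting: not given in the sources used here. In R 4.3.3, edgeR 4.0.16 (filterByExpr, TMM, robust quasi-likelihood fit of diet over all 9 libraries) gave 3 pairwise tests and a 3-group test, adjusted by Benjamini and Hochberg over 13020 genes, with a threshold of 0.05. The fit was tested on simulated data. Log2 CPM used a prior count of 2. The members, gene lists and tests were chosen with earlier results of these data known. The genes named were the whole family, the 4 genes of each bicarbonate list with the smallest p in the 3-diet test and the 3 genes most like each member. Alas2, Rhbg and Oat were named after their values were seen. Likeness was ranked over genes whose mean reached 1 CPM. Alternatives were DESeq2 1.42.0, voom in limma 3.58.1, other scalings and filters, and libraries left out. Knockout mice mentioned by the protocols were not analysed here.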

Additional observations from a re-analysis of the deposited data

How the results depend on the processing

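The number of members called by edgeR was 0 between sufficient and high iron, 0 between sufficient and low iron, 2 between low and high iron and 1 for any diet difference. With DESeq2 these were 3, 1, 3 and 3, and at an adjusted p of 0.1 the test of any difference called 3, beside 96 of all genes. Between low and high iron the count was 1 with no filter on low counts, beside 83 of all genes. It was also 1 without low-iron 1 and high-iron 12 together, beside 31 of all genes. Without these libraries the test of any difference called 0 members, beside 15 of all genes. Without low-iron 1 and sufficient-iron 6 together that test called 2 members, beside 192 of all genes. With each library left out in turn the counts ranged from 0 to 0, 0 to 0, 0 to 3 and 0 to 1. The 0 between low and high iron arose without low-iron 9, high-iron 4, 8 or 12, and a count of 1 without low-iron 5; any diet difference was 0 in the same 5 cases. Over all genes DESeq2 called 218, 105, 365 and 413, against 28, 0, 66 and 28 by edgeR, whose counts ranged from 0 to 56, 0 to 1, 0 to 112 and 0 to 68 with 1 library left out (0 between low and high iron without high-iron 8, 1 without high-iron 4). Signs changed only for genes far from the threshold. For Car13 in high against low iron the log2 fold change was 0.0152 with DESeq2 and 0.0667 with limma-voom, and from -0.46 to 0.59 with 1 library left out, above 0 without low-iron 5 or high-iron 8. For Car5a in high against sufficient iron it was -0.0209 without low-iron 1 and high-iron 12, -0.12 without low-iron 1 and sufficient-iron 6, and from -0.12 to 0.10 with 1 library left out, below 0 without sufficient-iron 6 or high-iron 12. For Car8 in the same comparison it ran from -0.17 to 0.0575 with 1 library left out, above 0 without sufficient-iron 2, sufficient-iron 10 or high-iron 4. Scalings moved the median of all genes by under 0.1 on the log2 scale. No paired analysis was possible because no title number is shared between diets and the labels do not say that consecutive numbers mark a set; a block on such sets was not fitted. Depth limited Car13 and Car4, whose counts were at most 36 reads and 1 read per library. CPM of the members on totals with Rn45s and Lars2 taken out, a setting chosen after seeing the data, was 1.31 to 1.59 times the reported value.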
